A study of Mus musculus with 12 samples.

Results

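Fas, Tnfrsf10b, Fadd, Cflar, Casp8, Apaf1, Casp9 and Casp6 encode core parts of the machinery that starts and carries out apoptosis. They were taken by mouse gene symbol, 1 Ensembl identifier each, and are 8 of the 37991 genes counted. All 8 passed the filter on low counts, which kept 15327 genes. Gene expression was measured by stranded mRNA-seq in primary mouse embryonic fibroblasts (MEFs) of the FVB strain, isolated from embryos of 13.5 days and used at passage 3. Wild-type (WT) MEFs were compared with MEFs homozygous for the E2f1 3KR knock-in allele (3KR), in which the acetylated lysines of the transcription factor E2F1 are changed to arginine. Cells of each genotype were left untreated or received neocarzinostatin (NCS), a radiomimetic drug that breaks DNA, at 250 ng/ml for 3 h. Each of the 4 groups held 3 samples, of 33203757 to 45279321 counts. Neither the labels nor the methods say whether the samples of a group came from different embryos, so the p-values measure the spread between these samples only.

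Apoptosis is known to start along an extrinsic or an intrinsic route. In the extrinsic route, a ligand binds a death receptor at the cell surface, and the adaptor FADD brings pro-caspase-8 to the receptor, where cFLIP, the product of Cflar, can block its activation. In the intrinsic route, cytochrome c released from mitochondria binds APAF1, which assembles the apoptosome and activates caspase-9. Both routes end in executioner caspases, to which caspase-6 belongs. Fas, Tnfrsf10b and Apaf1 are known as genes induced by p53 after DNA damage, and Apaf1 has also been described as a target of E2F1.

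The promoters of 7 of these genes were found in the RefSeq promoter table of GRCm38.p6. Tnfrsf10b had no entry in the table. The 3 shown here, as the 250 bases before the annotated start, belong to Fas and Apaf1, whose mRNAs rose most with NCS among the genes found there, and to Fadd, the 1 gene with a match to the letters searched. Each is written 5′ to 3′ on the strand of the gene.
Fas, chr19:34290409-34290658, plus strand: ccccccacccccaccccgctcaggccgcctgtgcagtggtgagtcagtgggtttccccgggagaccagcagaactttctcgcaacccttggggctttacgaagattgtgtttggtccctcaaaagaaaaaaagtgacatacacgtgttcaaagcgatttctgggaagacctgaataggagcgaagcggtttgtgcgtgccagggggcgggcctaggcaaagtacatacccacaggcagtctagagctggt
Fadd, chr7:144582442-144582691, minus strand: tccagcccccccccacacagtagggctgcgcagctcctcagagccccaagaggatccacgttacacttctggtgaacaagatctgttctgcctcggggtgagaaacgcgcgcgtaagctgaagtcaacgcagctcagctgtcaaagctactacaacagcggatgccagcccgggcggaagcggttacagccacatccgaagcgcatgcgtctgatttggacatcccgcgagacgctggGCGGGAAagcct
Apaf1, chr10:91082744-91082993, minus strand: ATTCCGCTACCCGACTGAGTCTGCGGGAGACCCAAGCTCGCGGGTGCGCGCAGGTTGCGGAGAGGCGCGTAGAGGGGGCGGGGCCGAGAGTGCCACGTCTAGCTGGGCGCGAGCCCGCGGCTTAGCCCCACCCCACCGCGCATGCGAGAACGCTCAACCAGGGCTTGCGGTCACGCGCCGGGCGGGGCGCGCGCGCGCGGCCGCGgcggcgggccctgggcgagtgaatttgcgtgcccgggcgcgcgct
In Fadd the capitals mark the match to an E2F motif. In Apaf1 they mark the 205 bases that also lie in the window before Ikbip, a gene on the opposite strand. The RefSeq starts of Apaf1 and Ikbip are 296 bases apart. The E2F letters TTCCCGC were searched on both strands, as were the variants with TTGGCGC in their place, with TTCGCGC or with TTGCCGC, and the consensus of the p53 half-site. Fadd held TTCCCGC on the opposite strand, read as GCGGGAA on its own strand and starting 12 bases before the RefSeq start. By the annotation used for gene positions here, Fadd starts at 144582463, so the match then lies inside the gene. Apaf1 starts at 91082770 by that annotation, inside the window shown, and 170 bases from the start of Ikbip. No other match to the letters searched was found in the windows of the 7 genes. The Casp8 window, chr1:58802252-58802501, lies inside the gene span given below for Casp8, so the bases before that span were not searched. Of 32851 promoters in the table, 7.89% held any of the E2F letters, 3.82% held TTCCCGC and 7.13% held the p53 half-site. A match in such a window is a description of its letters only.

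E2f1 mRNA was at 1146 ± 133 normalized counts in untreated WT and 1121 ± 9.31 in untreated 3KR samples (SD, n = 3), and counts per gene do not show the 3KR change itself. These are counts scaled by 1 size factor per sample. The 10 fibroblast markers were present in every sample, at a summed level of 57200 to 63500 CPM (counts scaled to a library of fixed size). Singly, 8 of them were higher and 2 lower in untreated 3KR than in untreated WT samples (edgeR, false discovery rate under 0.05). Of all tested genes, 22.1% were higher and 23.6% lower in that comparison. The genotypes also differed in sex-linked genes, since Xist was at 32.27 to 62.53 normalized counts in WT and 30590 to 35630 in 3KR samples. Ddx3y, on the Y chromosome, was at 5370 to 5822 in WT and 7.001 to 16.2 in 3KR samples, so that genotype and sex of the cells cannot be told apart. Macrophage markers summed to 118 to 145 CPM in WT and 213 to 237 CPM in 3KR samples, and Schwann cell and neural crest markers to 201 to 211 and 36.4 to 43.3 CPM. Skeletal muscle markers, of which 2 of 5 passed the filter on low counts, summed to 136 to 143 and 51.4 to 58.1 CPM. For interferon-stimulated genes the sums were 51.2 to 60.3 and 116 to 148 CPM. WT replicate 3 stood apart from WT replicates 1 and 2 in both treatments, where the chi-square averaged over genes was 7.34 to 9.14 in pairs with it and 2.02 to 2.29 in all other pairs of 1 group. Each result that changed without this replicate is given with and without it.

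**Figure D1:**
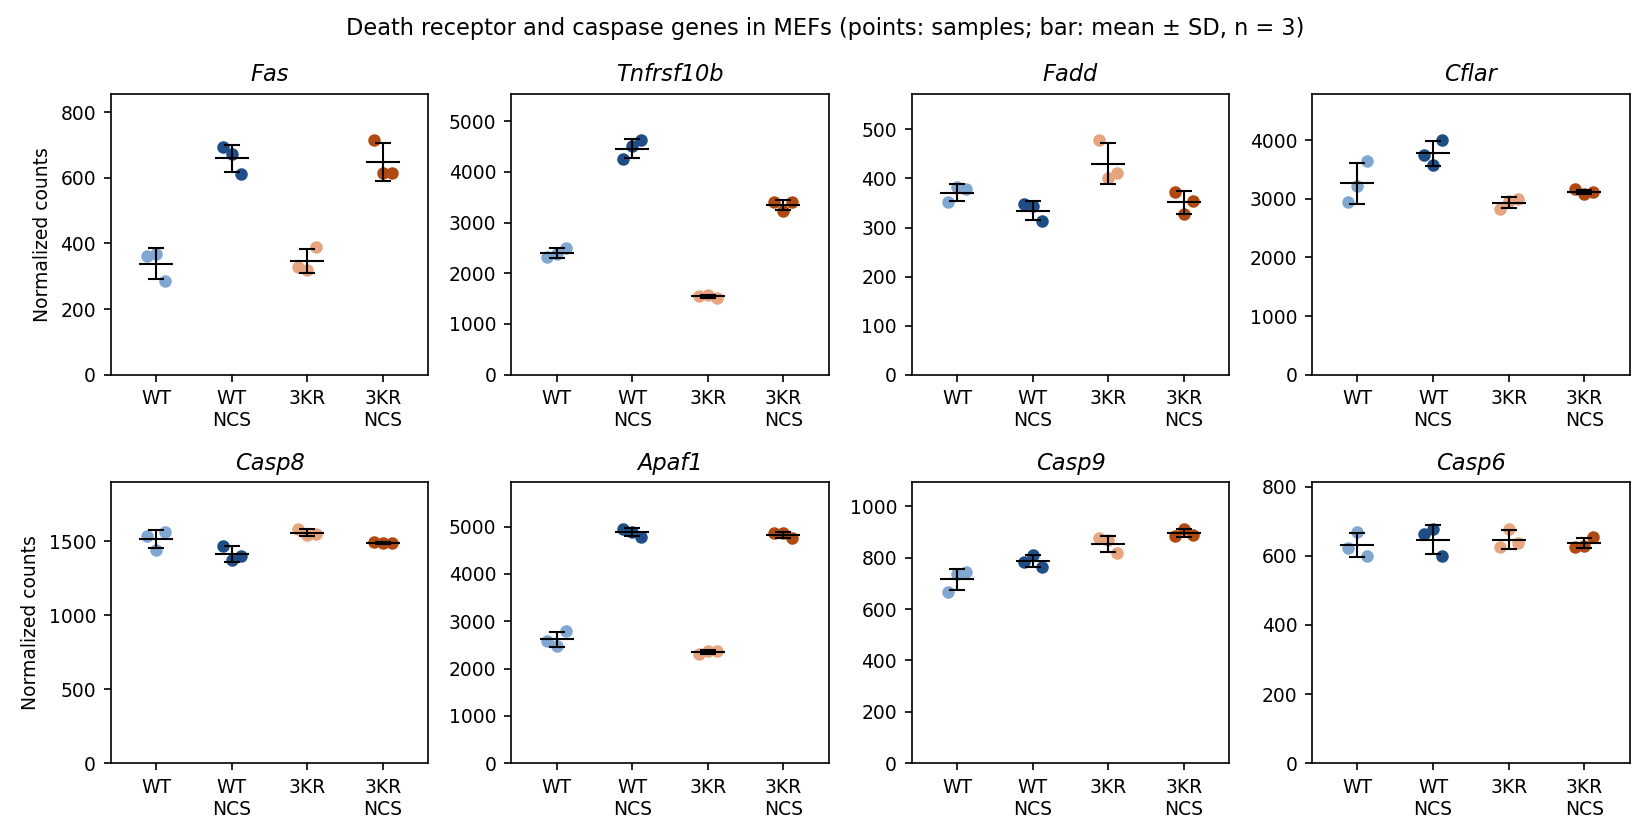
Normalized counts (y axis, from 0) of the 8 genes in untreated and NCS-treated WT and 3KR MEFs (x axis). Points are samples and bars the mean ± SD (n = 3). Fas, Tnfrsf10b and Apaf1 stood apart between untreated and NCS-treated samples in both genotypes, with no overlap, while the Casp6 samples lay between 600 and 678.1 throughout.

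NCS raised the mRNAs of both death receptors and of Apaf1 in both genotypes, whereas Casp8, Casp9 and Casp6 did not pass the test in either. In WT MEFs, Fas rose 1.93-fold, Tnfrsf10b 1.85-fold, Apaf1 1.86-fold and Cflar 1.15-fold, and none of the 8 genes passed the test as lower. In 3KR MEFs, Fas rose 1.87-fold, Tnfrsf10b 2.17-fold and Apaf1 2.06-fold, and Fadd fell to 0.82 of its untreated level. Thus 4 of 8 genes passed the test (edgeR's quasi-likelihood F test, false discovery rate (FDR) under 0.05) in WT MEFs and 4 of 8 in 3KR MEFs, where 26.7% and 30.8% of all tested genes did. By direction, 4 were higher in WT MEFs and 3 in 3KR MEFs, against 14.3% and 15.8% of all genes. The 1 that was lower, in 3KR MEFs, compares with 15.0% of all genes. The median log2 fold change over the 8 genes was 0.17 in WT and 0.08 in 3KR MEFs, and 0.01 and 0 over all tested genes.

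Fas (ENSMUSG00000024778; chr19:34290666-34327772, plus strand, GRCm38) encodes the receptor for Fas ligand. In WT MEFs its normalized counts were 362.9, 368.3 and 284.6 without treatment and 692.9, 672.1 and 611 after NCS. In 3KR MEFs they were 329.5, 319.3 and 388.3 without treatment and 713.9, 614.9 and 614.1 after NCS. Every treated sample lay above every untreated sample of either genotype, and the lowest and the highest untreated values belonged to WT replicate 3 and 3KR replicate 3. The log2 fold change was 0.95 (SE 0.093, edgeR FDR = 4.14e-08) in WT and 0.91 (SE 0.094, edgeR FDR = 8.17e-08) in 3KR MEFs. The responses differed by -0.05 (3KR minus WT), with a 95% confidence interval of -0.32 to 0.23 and an edgeR FDR of 0.908. Between genotypes, Fas differed by 0.02 without treatment (95% interval -0.18 to 0.23, edgeR FDR = 0.875) and by -0.02 after NCS (95% interval -0.20 to 0.16, edgeR FDR = 0.859). The sign of these differences changed when single samples were left out, and without WT replicate 3 in both treatments they were -0.07 for untreated samples and 0.005 for the responses. Fasl, the ligand, was at 0 to 2.05 normalized counts in every sample, which is under the floor of 3 counts, so it was not detectable at this depth.

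Tnfrsf10b (ENSMUSG00000022074; chr14:69767472-69784411, plus strand) encodes the mouse receptor for the death ligand TRAIL. Its normalized counts were 2318, 2388 and 2500 in untreated and 4250, 4512 and 4623 in NCS-treated WT samples. In 3KR samples they were 1554, 1567 and 1507 without treatment and 3412, 3227 and 3402 after NCS. The 4 groups did not overlap, and the order from low to high was untreated 3KR, untreated WT, treated 3KR and treated WT. NCS raised Tnfrsf10b by 0.89 on the log2 scale in WT (SE 0.04, edgeR FDR = 5.17e-14) and by 1.12 in 3KR MEFs (SE 0.042, edgeR FDR = 1.77e-15).

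Of the 8 genes, Tnfrsf10b differed most between the genotypes. It was lower in 3KR MEFs by a log2 fold change of -0.64 without treatment (0.64 of the WT level, SE 0.042, edgeR FDR = 7.66e-12) and of -0.41 after NCS (0.75 of the WT level, SE 0.039, edgeR FDR = 5.16e-09). In samples of whole cultures, fewer cells that express a gene and less RNA per cell cannot be told apart. The part of the other cell types and of sex, whose markers differed between the genotypes, in this difference was not tested. The log2 response to NCS exceeded that of WT MEFs by 0.23 (SE 0.057, 95% interval 0.11 to 0.35, edgeR FDR = 0.0231). This difference of the responses passed the test for 1 of the 8 genes, Tnfrsf10b, and for 3.73% of all tested genes (1.86% with a larger response in 3KR MEFs). It was lost without treated WT replicate 1 (0.20, edgeR FDR = 0.0787), and also when replicate 1 or 3 of the untreated or of the treated 3KR group was left out (0.21 to 0.24, edgeR FDR = 0.0559 to 0.0843). The ligand gene Tnfsf10, which encodes TRAIL, was sparse, with 4.058 to 4.971 normalized counts in untreated and 7.376 to 16.4 in treated WT samples (log2 fold change 1.35, edgeR FDR = 0.0553). In 3KR samples Tnfsf10 ranged from 6.365 to 11.44 without treatment and from 4.051 to 11.37 after NCS (log2 fold change -0.12, edgeR FDR = 0.886).

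**Figure D2:**
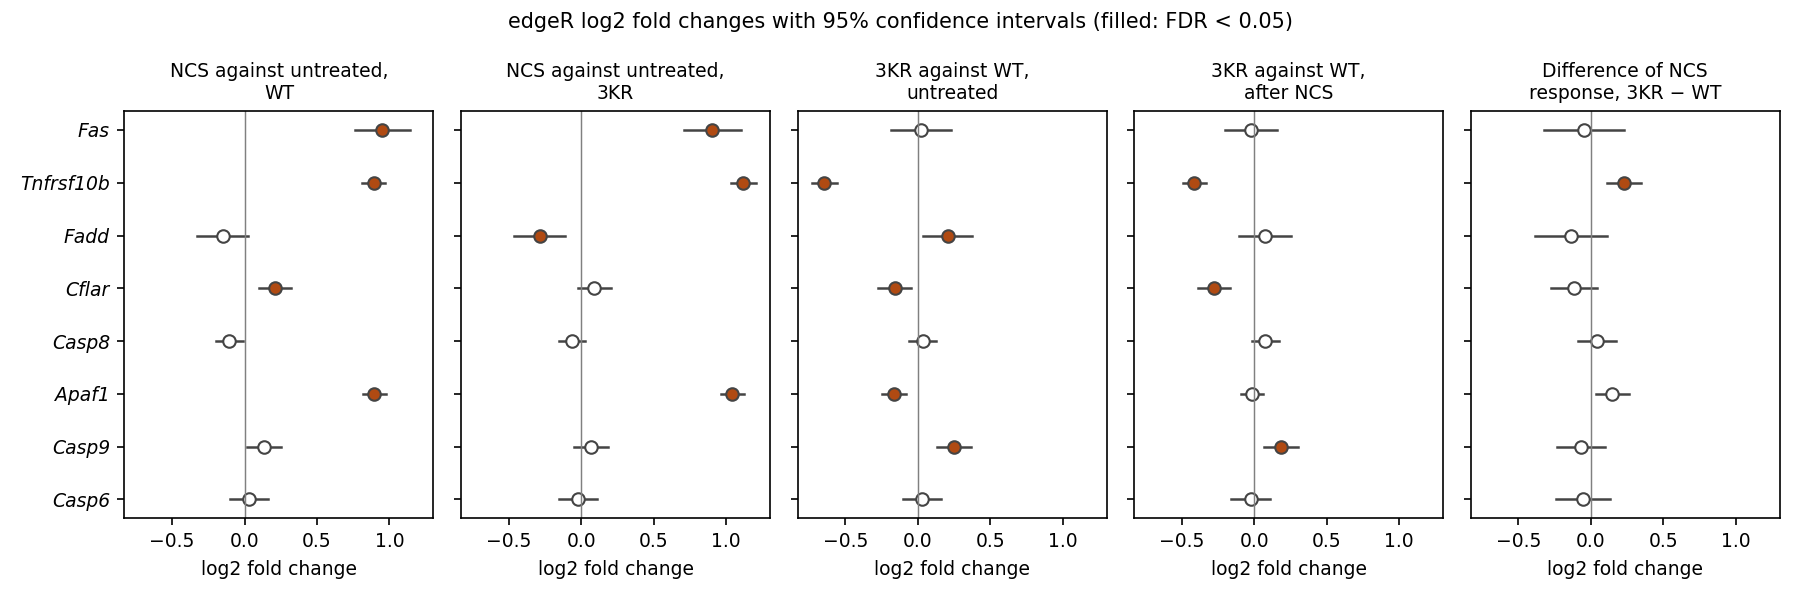
Log2 fold changes (x axis) of the 8 genes (y axis) in 5 comparisons, from edgeR, with 95% confidence intervals as lines and filled points at an FDR under 0.05. Fas, Tnfrsf10b and Apaf1 lay between 0.89 and 1.12 for NCS in both genotypes, and Tnfrsf10b had the lowest value (-0.64) between the genotypes.

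Fadd (ENSMUSG00000031077; chr7:144577318-144582463, minus strand) encodes the adaptor that joins the receptors to caspase-8. In WT MEFs its normalized counts were 351.3, 383.5 and 378.8 without treatment and 347.5, 343 and 313.5 after NCS. In 3KR MEFs they were 477.7, 400.4 and 411 without treatment and 372.7, 326.7 and 354.6 after NCS. Treated samples lay below untreated samples in both genotypes. In WT MEFs the log2 fold change of -0.15 (SE 0.085, edgeR FDR = 0.209) did not pass the test. In 3KR MEFs Fadd fell by 0.29 on the log2 scale (SE 0.084, edgeR FDR = 0.0119). The call was lost without untreated 3KR replicate 1, the highest sample (-0.20, edgeR FDR = 0.0987), and without treated 3KR replicate 2 (-0.24, edgeR FDR = 0.0657). The responses differed by -0.14 (95% interval -0.38 to 0.11, edgeR FDR = 0.636). Without treatment Fadd was higher in 3KR MEFs by 0.21 (SE 0.082, edgeR FDR = 0.0438), but this difference did not pass the test in 7 of 13 alternative settings, which include leaving out untreated WT replicate 1 (0.17) or 2 (0.23) or untreated 3KR replicate 1 (0.13, edgeR FDR = 0.27). After NCS the genotypes differed by 0.07 (95% interval -0.11 to 0.25, edgeR FDR = 0.527). Faddos, annotated on the opposite strand over Fadd, had 0 to 11.28 normalized counts per sample.

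Cflar (ENSMUSG00000026031; chr1:58711508-58758884, plus strand) and Casp8 (ENSMUSG00000026029; chr1:58795374-58847503, plus strand) lie 36489 bases apart and encode related proteins, the inhibitor cFLIP and the initiator caspase-8. Cflar counts were 2942, 3212 and 3636 in untreated and 3747, 3579 and 3994 in treated WT samples. In 3KR samples they were 2826, 2964 and 3001 without treatment and 3159, 3077 and 3108 after NCS. The WT groups overlapped, with the highest value of each in replicate 3, and every treated 3KR sample lay above every untreated 3KR sample. Cflar rose with NCS in WT MEFs by 0.21 on the log2 scale (SE 0.053, edgeR FDR = 0.00523), which fell just short without untreated WT replicate 1 (0.14, edgeR FDR = 0.0563) and with the 6 WT samples fitted alone (0.19, edgeR FDR = 0.0508). In 3KR MEFs the log2 fold change was 0.09 (SE 0.055, edgeR FDR = 0.232). It passed the test with the 6 3KR samples fitted alone (0.09, edgeR FDR = 0.0151). It also passed with the replicate number as a block across treatments (edgeR FDR = 0.0439), although the labels do not say that a number marks a shared culture. The difference of the responses was -0.12 (95% interval -0.28 to 0.04, edgeR FDR = 0.483), but -0.20 without untreated WT replicate 3 (edgeR FDR = 0.0279) and -0.16 without WT replicate 3 in both treatments (edgeR FDR = 0.0146).

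Between the genotypes, Cflar was lower in 3KR MEFs after NCS, where the groups did not overlap (log2 fold change -0.28, SE 0.054, edgeR FDR = 0.000181). Without treatment the log2 fold change of Cflar was -0.16 (SE 0.054, edgeR FDR = 0.0194). That call did not hold without WT replicate 3 in both treatments (-0.07, edgeR FDR = 0.104), without untreated WT replicate 3 alone (-0.07, edgeR FDR = 0.179) or without untreated 3KR replicate 1 (-0.13, edgeR FDR = 0.0946).

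Casp8 counts were 1540, 1445 and 1562 in untreated and 1472, 1371 and 1401 in treated WT samples. In 3KR samples they were 1585, 1542 and 1548 without treatment and 1497, 1488 and 1486 after NCS. The groups overlapped in WT MEFs, and in 3KR MEFs the treated samples lay below the untreated ones. The log2 fold change with NCS was -0.10 in WT (SE 0.045, edgeR FDR = 0.0914) and -0.06 in 3KR MEFs (SE 0.045, edgeR FDR = 0.32). Neither passed the test, although the WT value did with at least 10 counts required in every sample (edgeR FDR = 0.0421) and without untreated WT replicate 2 (edgeR FDR = 0.0471). Between the genotypes Casp8 differed by 0.03 without treatment (95% interval -0.06 to 0.13, edgeR FDR = 0.572) and by 0.08 after NCS (95% interval -0.02 to 0.17, edgeR FDR = 0.183).

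The balance of inhibitor to initiator was taken as the ratio of Cflar to Casp8 normalized counts within each sample, which is free of depth but not of transcript length. The ratios were 1.91, 2.22 and 2.33 in untreated and 2.55, 2.61 and 2.85 in treated WT samples, and 1.78, 1.92 and 1.94 in untreated and 2.11, 2.07 and 2.09 in treated 3KR samples. Treated samples were above untreated samples in both genotypes, and treated 3KR samples were below treated WT samples, with no overlap. The untreated genotypes overlapped. Per kilobase of merged exons the ratio was 0.407 to 0.651 over the 12 samples, so by that length Cflar was below Casp8 in each. The mean log2 ratio differed by 0.313 (NCS, WT), 0.153 (NCS, 3KR), -0.191 (3KR against WT, untreated) and -0.351 (3KR against WT, after NCS). The exact two-sided permutation p was 0.1, 0.1, 0.3 and 0.1 (0.133, 0.133, 0.3 and 0.133 adjusted over the 4 comparisons), and 0.1 is the smallest that 3 samples against 3 can give.

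**Figure D3:**
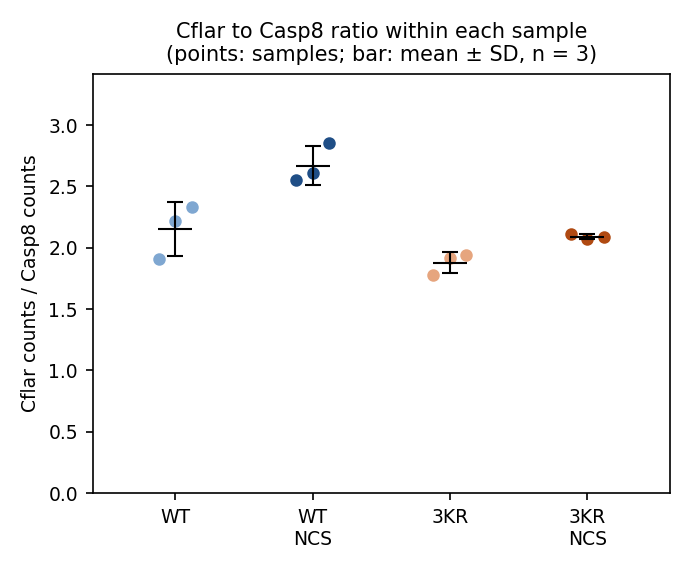
Ratio of Cflar to Casp8 normalized counts (y axis, from 0) within each sample of the 4 groups (x axis), with mean ± SD (n = 3). The NCS-treated WT samples, at 2.55 to 2.85, lay above all other samples.

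Apaf1 (ENSMUSG00000019979; chr10:90989311-91082770, minus strand) encodes the scaffold of the apoptosome. Its normalized counts were 2591, 2475 and 2783 in untreated and 4951, 4894 and 4783 in treated WT samples. In 3KR samples they were 2302, 2373 and 2361 without treatment and 4854, 4871 and 4756 after NCS. The treated samples of both genotypes overlapped with each other and lay far above all untreated samples. Ranked by p, the response of Apaf1 was number 16 of all tested genes in WT MEFs (log2 fold change 0.90, SE 0.038, edgeR FDR = 3.31e-14) and number 14 in 3KR MEFs (1.04, SE 0.039, edgeR FDR = 1.77e-15). The responses differed by 0.15 (SE 0.054, 95% interval 0.04 to 0.26), which did not pass the test (edgeR FDR = 0.148). It passed with the replicate number within each genotype as a block across treatments (0.15, edgeR FDR = 0.0403). The labels do not say that a number marks a shared culture. Apaf1 was lower in untreated 3KR than in untreated WT MEFs by -0.16 (SE 0.04, edgeR FDR = 0.00159), with no overlap between the groups. After NCS the genotypes differed by -0.02 (95% interval -0.09 to 0.06, edgeR FDR = 0.78).

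Ikbip, the gene that shares most of the Apaf1 promoter window printed above, is transcribed in the other direction. Its normalized counts were 5557 ± 234 in untreated and 5811 ± 320 in treated WT MEFs, and 5474 ± 130 and 5602 ± 64.7 in 3KR MEFs (SD, n = 3). The log2 fold change of Ikbip with NCS was 0.06 in WT (SE 0.039, edgeR FDR = 0.288) and 0.04 in 3KR MEFs (SE 0.04, edgeR FDR = 0.552), and in WT MEFs it was 0.10 without treated replicate 3 (edgeR FDR = 0.0334) and 0.07 without replicate 3 in both treatments (edgeR FDR = 0.043), beside 0.90 and 1.04 for Apaf1. Whether the 2 genes' responses differed was not tested.

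Casp9 (ENSMUSG00000028914; chr4:141793612-141815976, plus strand) encodes the caspase that the apoptosome activates. Its normalized counts were 667.7, 735.5 and 743.1 in untreated and 784.2, 811.3 and 763.2 in treated WT samples. In 3KR samples they were 875.7, 868.4 and 818.3 without treatment and 883, 912.4 and 889.2 after NCS. Each 3KR sample lay above every WT sample. Casp9 was higher in 3KR MEFs by 0.25 without treatment (1.19-fold, SE 0.056, edgeR FDR = 0.000752) and by 0.19 after NCS (1.14-fold, SE 0.056, edgeR FDR = 0.00912). With NCS the log2 fold change was 0.14 in WT (SE 0.057, edgeR FDR = 0.0832) and 0.07 in 3KR MEFs (SE 0.056, edgeR FDR = 0.381). In both genotypes the treated samples of Casp9 lay above the untreated ones, and in WT MEFs the value passed the test without WT replicate 3 in both treatments (0.19, edgeR FDR = 0.028). Cela2a and Ctrc, which the annotation places over Casp9, had 0 counts in all 12 samples.

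Casp6 (ENSMUSG00000027997; chr3:129901425-129914103, plus strand) encodes an executioner caspase that cleaves lamins. Its normalized counts were 623.8, 669.6 and 600.3 in untreated and 663.2, 677.6 and 600 in treated WT samples. In 3KR samples they were 624.8, 678.1 and 637.4 without treatment and 626.8, 628.9 and 653.4 after NCS. All groups overlapped. Its log2 fold changes lay between -0.02 and 0.03 in the 4 comparisons of groups (edgeR FDR = 0.75 to 0.847), and the 95% interval of the response was -0.10 to 0.17 in WT and -0.15 to 0.11 in 3KR MEFs.

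Between the genotypes, 5 of the 8 genes passed the test without treatment (Fadd and Casp9 higher, Tnfrsf10b, Cflar and Apaf1 lower in 3KR MEFs) and 3 after NCS (Casp9 higher, Tnfrsf10b and Cflar lower). Of all tested genes, 45.7% passed without treatment (22.1% higher, 23.6% lower) and 46.5% after NCS (22.9% higher, 23.6% lower). The median log2 fold change of the 8 genes was 0.03 without treatment and -0.02 after NCS, against 0 over all genes. Groups did not overlap for 4 of the 8 genes in each of these comparisons, 2 higher and 2 lower in 3KR MEFs. Of all genes, 27.0% were higher and 26.6% lower without overlap in the untreated samples, and 27.0% and 27.3% after NCS. For NCS, the groups did not overlap for 5 genes in WT MEFs (4 higher, 1 lower) and for 7 in 3KR MEFs (5 higher, 2 lower), where 18.6% and 16.5% of all genes in WT, and 24.0% and 23.6% in 3KR MEFs, were higher and lower in that way.

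Levels of different genes were compared per length, as CPM per kilobase of merged exons. In untreated WT MEFs the order was Casp8 (13.8 ± 0.578), Tnfrsf10b (11.6 ± 0.448), Apaf1 (7.61 ± 0.459), Cflar (6.76 ± 0.728), Fas (4.31 ± 0.593), Casp9 (3.61 ± 0.209), Casp6 (2.97 ± 0.163) and Fadd (2.5 ± 0.116; SD, n = 3). Apaf1 and Cflar, and Fas and Casp9, were neighbours in this order whose mean ± SD overlapped. In untreated 3KR MEFs the order was the same, from 14.1 ± 0.214 for Casp8 to 2.88 ± 0.281 for Fadd, with Tnfrsf10b at 7.4 ± 0.152, and Fas and Casp9, and Casp6 and Fadd, overlapped. After NCS, Tnfrsf10b came first in both genotypes (21.4 ± 0.853 in WT, 16.1 ± 0.51 in 3KR MEFs), followed by Apaf1 (14.1 ± 0.299 and 14 ± 0.176) and Casp8 (12.8 ± 0.492 and 13.5 ± 0.0593). The other genes followed in the order Fas, Cflar, Casp9, Casp6 and Fadd, and the mean ± SD of Fas and Cflar overlapped in WT MEFs (8.36 ± 0.571 and 7.8 ± 0.407). The order depends on the length used. Per kilobase of the longest transcript, Tnfrsf10b (19.8) was above Casp8 (15.4) in untreated WT MEFs, and Cflar (13) was above Apaf1 (10.4).

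The other genes of the pathway were 55 genes chosen by role, of which 53 were tested. With NCS, 8 rose and 7 fell in WT MEFs, and 10 rose and 10 fell in 3KR MEFs. Of all tested genes, 14.3% rose and 12.4% fell in WT and 15.8% rose and 15.0% fell in 3KR MEFs. Their median log2 fold change was -0.01 in both. Those that rose with a low p included Pidd1, which encodes a death domain protein that activates caspase-2, and Tnfrsf12a, the receptor of the ligand TWEAK. Pidd1 rose from 605.6 ± 54.3 to 1409 ± 68.7 normalized counts in WT MEFs (log2 fold change 1.22, edgeR FDR = 5.79e-13) and from 432.8 ± 28.3 to 1247 ± 36.2 in 3KR MEFs (1.53, edgeR FDR = 2.39e-14). Tnfrsf12a rose by 0.31 in WT and by 0.43 in 3KR MEFs (edgeR FDR = 7.65e-07 and 5.24e-09).

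Xiap, which encodes a direct inhibitor of caspases, fell in 3KR MEFs (-0.23, edgeR FDR = 5.89e-05). In WT MEFs its log2 fold change was -0.10 (edgeR FDR = 0.0654). That value passed the test with the replicate number as a block across treatments (edgeR FDR = 0.0207) and without WT replicate 3 (-0.11, edgeR FDR = 0.0174). Of 6 genes of caspase inhibitors, 1 fell in WT MEFs (Birc2, which encodes cIAP1, by -0.46 with an edgeR FDR of 5.32e-06) and 4 fell in 3KR MEFs, beside 12.4% and 15.0% of all genes. None of the 6 passed the test as higher in either genotype. That list also holds Xaf1, whose product is known to oppose XIAP, and Xaf1 was 1 of the 4. The other decreases with the lowest p were those of Acin1 (-0.19 in WT, -0.14 in 3KR) and Parp1 (-0.17 in WT), both caspase substrates, and of Bid (-0.25 in 3KR), the link from caspase-8 to mitochondria.

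**Figure D4:**
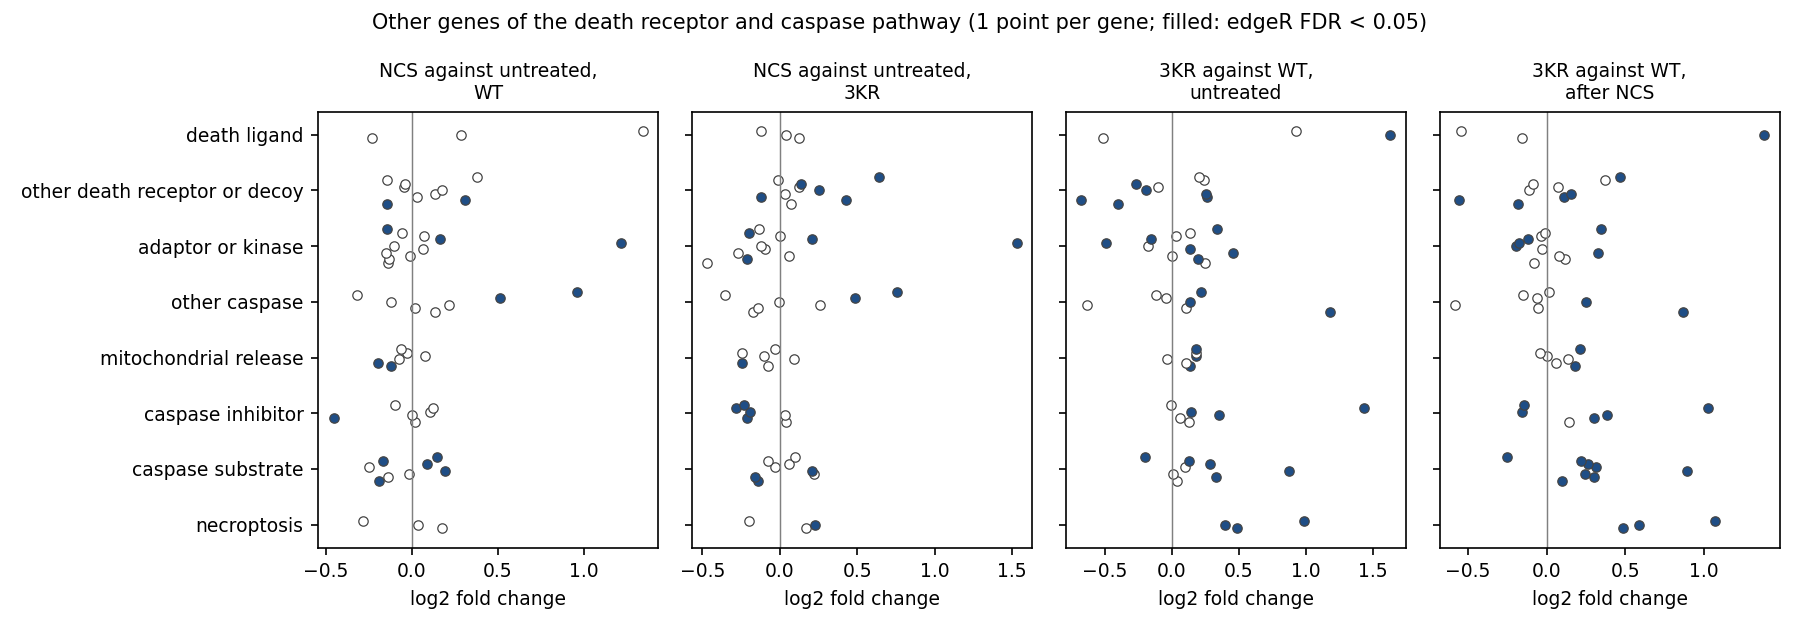
Log2 fold changes (x axis) of the 53 tested other pathway genes, 1 point per gene, by role (y axis) in 4 comparisons, filled at an edgeR FDR under 0.05. With NCS the filled points furthest to the right included Pidd1 (1.22 and 1.53), and between the genotypes most filled points lay to the right of 0.

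Between the genotypes, 23 of the 53 other genes were higher and 7 lower in 3KR MEFs without treatment (median log2 fold change 0.13, 0 over all genes), and 23 were higher and 8 lower after NCS (median 0.1). Of all tested genes, 22.1% were higher and 23.6% lower without treatment, and 22.9% and 23.6% after NCS. Without treatment the lowest p among the higher genes were those of Gsdmd, which encodes a pore-forming gasdermin (398.9 ± 23.4 in WT and 731.6 ± 18.5 in 3KR MEFs, log2 fold change 0.87, edgeR FDR = 5.7e-11), Xaf1 (1.43, edgeR FDR = 1.65e-10) and Ripk3, a kinase of necroptosis (0.40, edgeR FDR = 4.15e-09). After NCS they were Ripk3 (0.59, edgeR FDR = 4.16e-12), Gsdmd (0.89, edgeR FDR = 3.25e-11) and Lmna (0.26, edgeR FDR = 2.55e-08), which encodes lamin A. All 3 necroptosis genes tested, Ripk3, Mlkl and Zbp1, were higher in 3KR MEFs both without and with NCS, beside the same 22.1% and 22.9% of all genes. Macrophage markers and interferon-stimulated genes were also higher in 3KR MEFs, 12 of 12 and 14 of 14 without treatment and 10 of 12 and 14 of 14 after NCS. No macrophage marker was at or under 3 counts in all samples of a group. With NCS in 3KR MEFs, Ripk3 and Gsdmd rose (0.23 and 0.21, edgeR FDR = 3.62e-05 and 0.00891). Xaf1 fell (-0.28, edgeR FDR = 0.0371), and Mlkl, Zbp1 and Lmna did not pass the test. Of the macrophage markers 0 rose and 2 fell there, and of the interferon-stimulated genes 0 rose and 6 fell, beside 15.8% and 15.0% of all genes. With NCS in WT MEFs, Gsdmd and Lmna rose (0.19 and 0.09, edgeR FDR = 0.0371 and 0.0195), and Ripk3, Xaf1, Mlkl and Zbp1 did not pass the test. Of the macrophage markers 1 rose and 0 fell in WT MEFs. The interferon-stimulated genes gave the same counts, beside 14.3% and 12.4% of all genes. The part of these markers and interferon-stimulated genes in the higher levels was not tested.

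Lower in 3KR MEFs were Tnfrsf12a (-0.67 without treatment, edgeR FDR = 3.36e-13, and -0.56 after NCS, edgeR FDR = 1.12e-11), Tnfrsf11b, which encodes the decoy receptor osteoprotegerin (-0.40, edgeR FDR = 5.55e-09, and -0.19, edgeR FDR = 0.000358), Pidd1 without treatment (-0.49, edgeR FDR = 3.58e-06) and Rock1 after NCS (-0.25, edgeR FDR = 2.35e-05). Xiap differed by -0.01 and -0.14 between the genotypes without and with NCS (edgeR FDR = 0.907 and 0.0042). The response to NCS differed between genotypes for 3 of the 53 genes, beside 3.73% of all genes. It was higher in 3KR MEFs for Tnfrsf11b (0.22, edgeR FDR = 0.0231) and Ripk3 (0.19, edgeR FDR = 0.0407) and lower for Birc6, which encodes a large inhibitor of apoptosis protein (-0.30, edgeR FDR = 0.0245). Each of these 3 calls was lost when some single samples were left out, 6 of 12 for Tnfrsf11b, 8 for Ripk3 and 9 for Birc6 (edgeR FDR up to 0.0831, 0.138 and 0.0799). For Xiap the difference of the responses was -0.14 (edgeR FDR = 0.2).

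Across the 12 samples, which share the 4 groups, Apaf1 and Fas (Pearson r = 0.946), Apaf1 and Tnfrsf10b (r = 0.919) and Fas and Tnfrsf10b (r = 0.835) had the highest correlations of log2 CPM among the 8 genes. Fadd ran against Tnfrsf10b (r = -0.831), as did Casp8 (r = -0.789). Over 11750 genes with a mean log2 CPM of at least 1, the patterns most like that of Apaf1 were those of Ptpn14 (r = 0.998), N4bp1 (0.994) and Cep170b (0.993). For Tnfrsf10b they were those of Cdkn1a (r = 0.996), which encodes the cell cycle inhibitor p21, Fbxw9 (0.995) and Ak1 (0.995). For Fas they were those of ENSMUSG00000087676 (r = 0.974), Dennd2c (0.968) and Cers4 (0.967), and for Cflar those of Wnk1 (r = 0.985), Pex5 (0.972) and Nfat5 (0.97). The highest were Zmym3 for Fadd (r = 0.934, then Ubr7 at 0.923 and Slc38a9 at 0.909), Casd1 for Casp8 (r = 0.909, then Exosc2 at 0.908 and Kpna2 at 0.904) and Egln3 for Casp9 (r = 0.974, then Irf2 at 0.969 and Daxx at 0.959). Casp6 had the weakest likeness to its closest genes, Dnajc8 (r = 0.865), Zfp9 (0.857) and Psme2 (0.851). These values describe the 12 samples and were not tested.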

How the data were processed

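RNA-seq libraries were prepared with a stranded mRNA kit and sequenced on an Illumina HiSeq instrument. The authors deposited raw counts per Ensembl gene, 1 file per sample. The submitters' processing notes name TopHat, HTSeq, DESeq and the mm9 build without versions, and the strand setting of the counting is not given in the sources used here. Gene names, lengths and positions came from the GENCODE M21 annotation of GRCm38, which held 32938 of the 37991 identifiers, and promoters from RefSeq (GRCm38.p6).

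Counts were analysed in R 4.3.3 with edgeR 4.0.16 (TMM, filterByExpr, quasi-likelihood F test, two-sided, Benjamini-Hochberg adjustment over 15327 genes, threshold 0.05), with 1 coefficient for each of the 4 groups over all 12 samples. The common biological coefficient of variation was 3.95%. Normalized counts used the size factors of DESeq2 1.42.0. The Cflar to Casp8 ratio was tested by an exact permutation test. Confidence intervals of log2 fold changes come from this fit, and the floor of 3 counts covers counting error only. The fits were tested on simulated data.

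Alternatives were DESeq2 size factors and its Wald test, other filters, the 6 samples alone, a replicate block and leaving out single samples. Leaving out WT replicate 3 in both treatments was chosen after seeing the data. The genes and lists were chosen with earlier results of these data known. Other pathway genes were named by the 3 lowest p per direction and comparison, plus Xiap. Results of some pathway genes that this rule names are not reported here. Tnfsf12 could not be matched to a single identifier and was left out.

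The labels number the samples but do not say that a number marks a shared culture. Same-numbered WT samples deviated together across treatments (r = 0.28, 0.253 and 0.488 over 9198 genes of at least 10 CPM), whereas 3KR samples did not (r = 0.029 to 0.033), nor did samples across genotypes (r = -0.034 to 0.027). The difference of WT replicates 1 and 2 did not carry over between treatments (r = 0.013).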

Additional observations from a re-analysis of the deposited data

Results flagged for a closer look

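Among the 8 genes, the response of Tnfrsf10b to NCS differed between the genotypes by the interaction term of the edgeR fit. The log2 fold change was 0.23 larger in 3KR than in WT MEFs (edgeR FDR = 0.0231), with responses of 0.89 and 1.12, and untreated and treated samples did not overlap in either genotype. The call was lost in 5 of the 12 fits that left out 1 sample.

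Of the other pathway genes, the same term passed the test for 3. For Tnfrsf11b the response was 0.217 larger in 3KR MEFs (edgeR FDR = 0.0231), from 4148 ± 161 to 3768 ± 123 normalized counts in WT and from 3154 ± 96.7 to 3314 ± 74.2 in 3KR MEFs (SD, n = 3). For Ripk3 it was 0.19 larger (edgeR FDR = 0.0407), from 2835 ± 92.1 to 2913 ± 73.6 in WT and from 3741 ± 107 to 4369 ± 125 in 3KR MEFs (SD, n = 3). For Birc6 the difference was -0.298 (edgeR FDR = 0.0245), from 5497 ± 681 to 5927 ± 185 in WT and from 6085 ± 28.7 to 5319 ± 89.5 in 3KR MEFs (SD, n = 3), and the untreated WT samples of Birc6 spread from 5093 to 6283. Groups of 3 samples are too small to test single samples as outliers.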

How the results depend on the processing

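Over the 8 genes and 5 comparisons, 552 alternatives of 40 results were computed. Of these, 510 kept direction and side of the threshold, 19 lost a call, 9 gained one and 14 changed sign, and 12 of 17 called results held under all alternatives run. For the other genes named, with 417 alternatives of 31 results, these numbers were 385, 23, 6 and 3, and 23 of 26 called results held. The signs that changed belonged to differences close to 0 that were not called. Leaving out single samples moved Casp6 from -0.004 to 0.082 (NCS, WT), from -0.044 to 0.013 (NCS, 3KR), from -0.004 to 0.071 (genotypes, untreated) and from -0.07 to 0.012 (genotypes, after NCS), Xiap from -0.025 to 0.016 (untreated) and Fas from -0.081 to 0.081 (untreated), from -0.1 to 0.016 (after NCS) and from -0.125 to 0.058 (difference of responses). Without WT replicate 3 in both treatments, Fas was at -0.074 (untreated) and 0.005 (difference of responses). Without a filter on low counts Xiap was at 0.004 (untreated).

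The count of the 8 genes called between untreated genotypes was 5, and 3 to 5 without single samples. For the difference of the responses it was 1, and 0 to 2 without single samples. It was 2 with a replicate block on the number within each genotype and 2 without WT replicate 3. Among the other pathway genes this count was 3, 5 by DESeq2's Wald test, 8 with the replicate block, 0 to 6 without single samples and 10 without WT replicate 3. Among all tested genes it was 572, 1379 with the replicate block, 345 to 1159 without single samples and 1842 without WT replicate 3. The count of other pathway genes changed by NCS in WT MEFs was 15, and 9 with the 6 samples alone. Levels per kilobase of the longest transcript kept the places of 4 of 8 genes in untreated WT, 5 in treated WT and 4 in untreated 3KR MEFs. The cause of these changes was not tested.

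With a replicate block on the number within each genotype, Cflar passed the test for NCS in 3KR MEFs (0.09, edgeR FDR = 0.0439). Apaf1 then passed for the difference of the responses (0.147, edgeR FDR = 0.0403). With a replicate block on the number across genotypes, Fadd lost its call between untreated samples (edgeR FDR = 0.0623). The block changed no other call of the 8 genes.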
